A study of Mus musculus with 8 samples.

Results

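Skeletal muscle breaks down its own proteins largely through the ubiquitin-proteasome system, in which E3 ubiquitin ligases choose the substrates. The ligases Trim63 (MuRF1) and Fbxo32 (atrogin-1) are the usual mRNA markers of muscle atrophy, and the forkhead factors of the FoxO class are the best known activators of their transcription. When insulin or IGF1 signalling runs through Akt, FoxO proteins are phosphorylated and held in the cytosol, so that FoxO activity is set mainly at the protein, which RNA counts do not measure. The values below are for 10 genes of this system among the 14012 genes of the deposited table. These genes were chosen by name, with earlier results of these data known. They are the RING ligases Trim63 and Trim32 and the F-box proteins Fbxo32, Fbxo40, Fbxo31 and Fbxo30. With them are the mitochondrial ligase Mul1 and the factors Foxo1, Foxo3 and Foxo4. All 10 were measured, with 102 to 14255 counts in each library.

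Polyadenylated RNA of the quadriceps femoris was sequenced from 4 mice labelled knockout (Grpel1 smk -/-) and 4 labelled control (Grpel1 flox/flox), with 1 library per mouse. GRPEL1 is a co-chaperone of mitochondrial protein import. The study made the knockout by crossing the floxed gene, which both groups carry, to HSA-Cre-ERT2, a Cre recombinase that is driven by the human skeletal actin promoter and switched on by tamoxifen. The targeted cells were put into C57BL/6NCrl blastocysts, and the strain background after the later crosses was not stated. The knockout mice were induced as young animals and taken when they had lost weight with visible muscle atrophy. The labels give the treatment of all 8 mice as none. The study calls Grpel1 flox/flox littermates untreated where it follows body weight, but it also had floxed controls with Cre alone or with tamoxifen alone, and which of these gave the RNA was not stated. An effect of Cre or of tamoxifen cannot be told apart from the knockout. The tissue also holds cells in which this Cre is not made, and in bulk RNA fewer cells of a type and less RNA per cell cannot be told apart. The Grpel1 count of the whole gene was 64.1 to 71.2 CPM (edgeR's counts relative to library size) among control libraries and 59.9 to 71.9 CPM among knockout libraries. It does not check the labels, and each direction below rests on them.

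The libraries held 16017565 to 20361144 counts. CPM values here are counts over library sizes scaled by TMM, edgeR's factor for composition, which ranged over 0.747 to 0.844 for control and 1.19 to 1.33 for knockout libraries. When library totals alone were used, the median change over all genes moved from 0.07 to 0.73 on the log2 scale, and values were therefore also read relative to that median. A change of scaling moves all genes by nearly the same amount. Values relative to the median therefore hardly change with it and are no separate check. The summed level of 14 fibre markers, which checks the labelled tissue, was 276475 to 363230 CPM among control and 101146 to 142896 CPM among knockout libraries. Of these markers 11 were lower, 2 (Des and Myh1) were higher and 1 did not pass the test. How far this moves the values of the 10 genes was not tested.

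Of the 10 genes, 5 were lower in the knockouts (Fbxo32, Fbxo40, Fbxo31, Trim32 and Foxo4), 1 was higher (Fbxo30), and 4 did not pass the threshold (Trim63, Mul1, Foxo1 and Foxo3), at an adjusted p under 0.01 from edgeR's quasi-likelihood test over all genes. Among all 14012 genes 21.1% were lower, 23.6% were higher and 44.7% passed in either direction. The median log2 fold change of the 10 genes was -0.62, beside 0.07 over all genes. In 6 of the 10 the groups did not overlap, beside 53.4% of all genes, and each time every knockout library lay below every control library, a pattern that 24.4% of all genes showed. At an adjusted p under 0.05 in edgeR, 2 of the 10 were higher and 6 lower, beside 31.7% and 27.5% of all genes. By DESeq2 at 0.01, 1 was higher and 6 were lower, beside 23.2% and 24.8% of all genes.

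**Figure D1:**
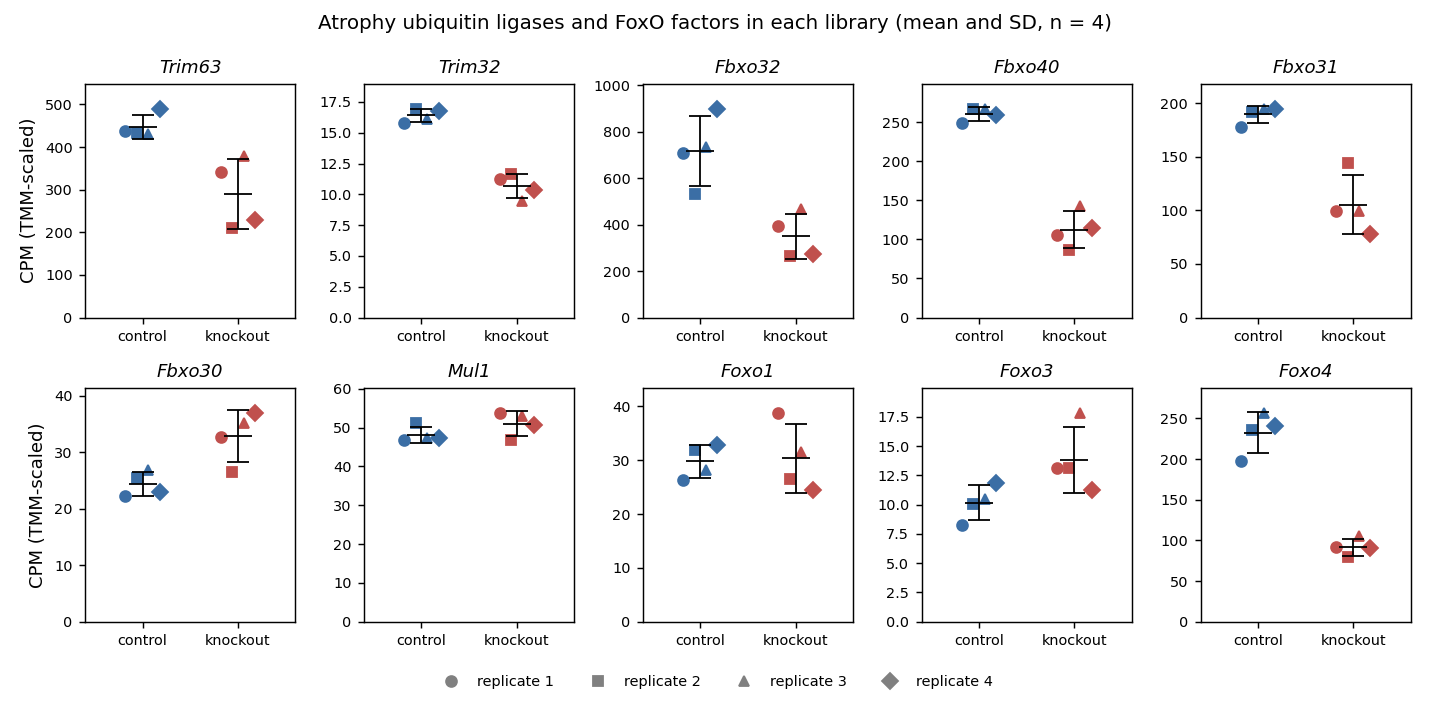
CPM (vertical axis, TMM-scaled, from 0) of each of the 10 genes in the 4 control and 4 knockout libraries; each symbol is 1 library, and the bars give the mean and SD. The 6 genes whose knockout libraries all lie below the controls are Trim63, Trim32, Fbxo32, Fbxo40, Fbxo31 and Foxo4, while the groups of Fbxo30, Mul1, Foxo1 and Foxo3 overlap.

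Trim63 is a RING ligase of the sarcomere that ubiquitinates thick filament proteins, and lies on chromosome 4 from 134315120 to 134329629 (plus strand; coordinates here are GRCm38). It was at 437, 434, 431 and 490 CPM in control replicates 1 to 4 and at 342, 211, 379 and 229 CPM in knockout replicates 1 to 4. All knockout libraries lay below all controls, with replicates 1 and 3 above replicates 2 and 4. The mean went from 448 ± 28.2 to 290 ± 82.9 CPM (SD, n = 4 per group). On the log2 scale the fold change was -0.63 (standard error 0.18, 95% interval -1.02 to -0.23). The edgeR adjusted p of 0.0117 misses the threshold of 0.01. It passed without knockout replicate 3 (log2 fold change -0.82, edgeR adjusted p = 0.00223), with RLE scaling (-0.67, edgeR adjusted p = 0.00962) and in DESeq2 (-0.67, adjusted p = 0.000752). On library totals alone the log2 fold change was 0.02, or -0.71 relative to the median of all genes.

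Trim32, a RING ligase for desmin and thin filament proteins whose loss causes a limb-girdle dystrophy, was at 15.8, 17.0, 16.1 and 16.8 CPM in the controls and at 11.2, 11.6, 9.49 and 10.4 CPM in the knockouts. The groups were narrow and did not overlap. Its log2 fold change was -0.62 (standard error 0.09, edgeR adjusted p = 2.0e-04). The value is close to that of Trim63, with a smaller spread between knockout libraries. Scaled by library totals alone it was 0.05, or -0.68 relative to the median. The whole of Trim32 (chromosome 4, 65604986 to 65616240, plus strand) lies inside the span of Astn2 on the other strand. The study used a directional library kit, but the use of strand in the counting was not stated.

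Fbxo32, the F-box subunit that directs an SCF ligase to Myod1 and Eif3f, lies on chromosome 15 from 58175879 to 58214892 (minus strand). It was at 707, 531, 734 and 898 CPM in the controls and at 392, 265, 467 and 274 CPM in the knockouts. Every knockout library was below every control, again with knockout replicates 1 and 3 above 2 and 4. The mean went from 718 ± 150 to 350 ± 97.4 CPM, a log2 fold change of -1.04 (standard error 0.21, 95% interval -1.50 to -0.57, edgeR adjusted p = 0.00177). The call was lost with library totals alone, at -0.39 (edgeR adjusted p = 0.091), which is -1.12 relative to the median.

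Fbxo40, a muscle-specific F-box protein that targets the insulin receptor substrate Irs1, fell furthest among the ligases. It was at 249, 267, 267 and 260 CPM in the controls and at 106, 86.6, 143 and 114 CPM in the knockouts, so that the highest knockout library stood far under the lowest control. Its log2 fold change was -1.21 (standard error 0.13, 95% interval -1.51 to -0.92, edgeR adjusted p = 3.05e-05). It stayed past the threshold in the same direction in all 18 alternatives, and was -0.55 with library totals alone. Fbxo40 lies on chromosome 16 from 36966073 to 36979136 (minus strand).

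Fbxo31, an F-box protein that targets cyclin D1 and is listed among the FoxO-dependent ligases of muscle, was at 178, 192, 195 and 194 CPM in the controls and at 99.8, 144, 99.9 and 78.1 CPM in the knockouts. The groups did not overlap, and knockout replicate 2, the lowest for Trim63, Fbxo32 and Fbxo40, was the highest here. The log2 fold change was -0.85 (standard error 0.16, edgeR adjusted p = 0.00101). Under library totals alone it was -0.18 (edgeR adjusted p = 0.369), or -0.91 relative to the median. The gene is on chromosome 8 from 121549443 to 121578806 (minus strand), wholly overlapped by the predicted gene Gm20388 on the other strand.

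Fbxo30 (MUSA1), the F-box protein that BMP signalling holds down in muscle, went the other way. It was at 22.2, 25.5, 26.9 and 23.0 CPM in the controls and at 32.8, 26.5, 35.2 and 37.0 CPM in the knockouts. Knockout replicate 2 lay within the control range and the other 3 above it. The log2 fold change was 0.43 (standard error 0.11, 95% interval 0.18 to 0.68, edgeR adjusted p = 0.00721). The call was lost in 9 of 18 alternatives, among them RLE scaling (0.39, edgeR adjusted p = 0.0138). Leaving out any of control replicates 1, 2 and 4 or of knockout replicates 1, 3 and 4 lost it too, at log2 fold changes of 0.35 to 0.45. Fbxo30 lies on chromosome 10 from 11281330 to 11297969 (plus strand).

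Mul1, a ligase of the outer mitochondrial membrane that acts on mitofusins, was at 46.7, 51.2, 47.4 and 47.4 CPM in the controls and at 53.8, 46.7, 53.0 and 50.6 CPM in the knockouts. The groups overlapped, and the log2 fold change of 0.08 had a 95% interval of -0.07 to 0.23 (edgeR adjusted p = 0.309). Relative to the median of all genes it was 0.02, and it was 0.02 relative to the median with library totals alone as well, where its own log2 fold change of 0.75 passed the threshold (edgeR adjusted p = 5.95e-06). Mul1 lies on chromosome 4 from 138434672 to 138442265 (plus strand).

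Foxo1, which drives atrophy ligases and Pdk4 in fasting muscle, was at 26.3, 31.9, 28.2 and 32.8 CPM in the controls and at 38.8, 26.4, 31.6 and 24.5 CPM in the knockouts. The knockouts spread to both sides of the controls. Its log2 fold change was 0.02 with a 95% interval of -0.29 to 0.34 (edgeR adjusted p = 0.901), and its sign changed between settings. Library totals alone gave 0.68, which passed the threshold (edgeR adjusted p = 0.00159) and is -0.05 relative to the median. Foxo1 lies on chromosome 3 from 52268337 to 52350109 (plus strand), and the annotated gene Gm38034 overlaps it by 2069 bases on the same strand.

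Foxo3, the factor most studied as an activator of Fbxo32 and of autophagy genes, had the lowest level of the set in the controls. It was at 8.24, 10.1, 10.5 and 11.8 CPM in the controls and at 13.1, 13.1, 17.8 and 11.2 CPM in the knockouts. Only knockout replicate 4 reached into the control range. The log2 fold change of 0.44 (standard error 0.16, 95% interval 0.09 to 0.79) did not pass the threshold (edgeR adjusted p = 0.0356). Without knockout replicate 3, the highest library, it was 0.26 (edgeR adjusted p = 0.132). Library totals alone gave 1.09, which passed (edgeR adjusted p = 0.000138), or 0.36 relative to the median. The gene is on chromosome 10 from 42185786 to 42276742 (minus strand).

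Foxo4, a FoxO factor of muscle under the same control by Akt, fell furthest of all 10. It was at 198, 235, 257 and 240 CPM in the controls and at 91.7, 79.5, 105 and 90.2 CPM in the knockouts, with a wide gap between the groups. The mean went from 233 ± 24.9 to 91.6 ± 10.5 CPM, a log2 fold change of -1.34 (standard error 0.11, 95% interval -1.58 to -1.11, edgeR adjusted p = 3.95e-06). The direction and the call were the same in all 18 alternatives, with -0.68 under library totals alone. Foxo4 lies on chromosome X from 101254528 to 101260873 (plus strand).

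**Figure D2:**
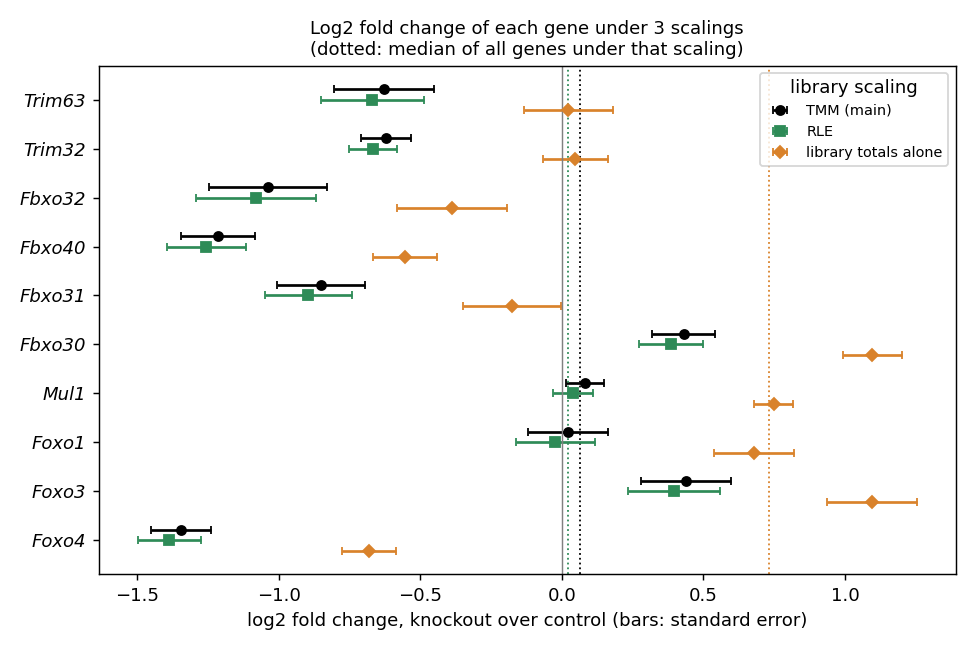
Log2 fold change of knockout over control (horizontal axis) with its standard error for each of the 10 genes under TMM scaling, RLE scaling and library totals alone; dotted lines mark the median of all genes under each. Library totals alone shift the genes and the median of all genes together to the right, from 0.07 to 0.73 for the median, while Fbxo32, Fbxo31, Fbxo40 and Foxo4 stay below 0 under all 3.

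These 10 genes varied more between knockout than between control libraries. The coefficient of variation of the CPM was higher in the knockouts for all 10 genes, with a median of 7.60% for control and 20.6% for knockout libraries. The 10 genes share their libraries, so these are not 10 separate observations. Over 11044 genes with a mean count of at least 50 it was higher in the knockouts for 42.3%, with medians of 10.3% and 9.28%. The widest knockout spreads were those of Trim63 (28.6%), Fbxo32 (27.9%) and Fbxo31 (26.2%), and the narrowest that of Mul1 (6.25%).

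Levels can be set between genes only per length, and are given here as CPM per kb of exon. The counted spans of Foxo1, Foxo3 and Fbxo40 stop short of their GENCODE spans at the end of the transcript. For Foxo1 the counted end is 52350109, against 52353221 in GENCODE. How far this moves the order, or the family shares per kb, was not tested. Trim63 led in the controls at 238 ± 14.9, followed by Fbxo40 (103 ± 3.44), Fbxo32 (103 ± 21.7), Foxo4 (73.5 ± 7.89), Fbxo31 (43.6 ± 1.83) and Mul1 (12.9 ± 0.546). Foxo1 (5.37 ± 0.550), Trim32 (5.14 ± 0.166), Fbxo30 (4.77 ± 0.425) and Foxo3 (3.52 ± 0.516) were the lowest. Neighbours whose libraries overlapped were Fbxo40 and Fbxo32, Fbxo32 and Foxo4, Foxo1 and Trim32, and Trim32 and Fbxo30. In the knockouts Trim63 still led (154 ± 44), before Fbxo32 (50.4 ± 14), Fbxo40 (44.6 ± 9.26), Foxo4 (29 ± 3.33), Fbxo31 (24.2 ± 6.34) and Mul1 (13.7 ± 0.854). Below them came Fbxo30 (6.43 ± 0.895), Foxo1 (5.46 ± 1.15), Foxo3 (4.78 ± 0.974) and Trim32 (3.34 ± 0.296). Trim32 thus moved from the rank of 8 to that of 10, and its knockout libraries did not overlap those of Foxo3. Overlapping neighbours in the knockouts were Fbxo32 and Fbxo40, Foxo4 and Fbxo31, Fbxo30 and Foxo1, and Foxo1 and Foxo3.

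The make-up of the families does not depend on how libraries are scaled. Foxo4 gave 83.8% to 84.9% of the FoxO total per kb among control and 69.1% to 72.5% among knockout libraries. Foxo1 went from 5.28-6.55% to 11.2-16.6%, and Foxo3 from 3.79-4.55% to 9.90-13.2%. The groups did not overlap for any of these 3 shares, while the groups overlapped for Foxo6, a FoxO factor outside the set, at 4.64-6.48% and 3.36-6.35%. The FoxO total went from 87.2 ± 9.56 to 40.9 ± 4.60 CPM per kb, or from 69.2 ± 8.43 to 51.5 ± 3.28 on library totals alone.

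The share of Trim63 in the MuRF family overlapped between the groups, at 38.7% to 43.3% among control and 33.9% to 41.6% among knockout libraries. Its relative Trim54 (MuRF3), which stabilises microtubules in fibres, gave 50.4% to 55.6% and 54.5% to 61.3%. Trim55 (MuRF2) gave 5.67% to 7.38% and 3.82% to 4.98%, with no overlap. The MuRF total went from 582 ± 24.3 to 404 ± 72.1 CPM per kb, but from 462 ± 31 to 506 ± 64.7 on library totals alone. Among the 4 F-box genes the share of Fbxo30 went from 1.6-2.15% to 4.47-6.59%, again with no overlap. The shares of Fbxo32, Fbxo31 and Fbxo40 overlapped between the groups.

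**Figure D3:**
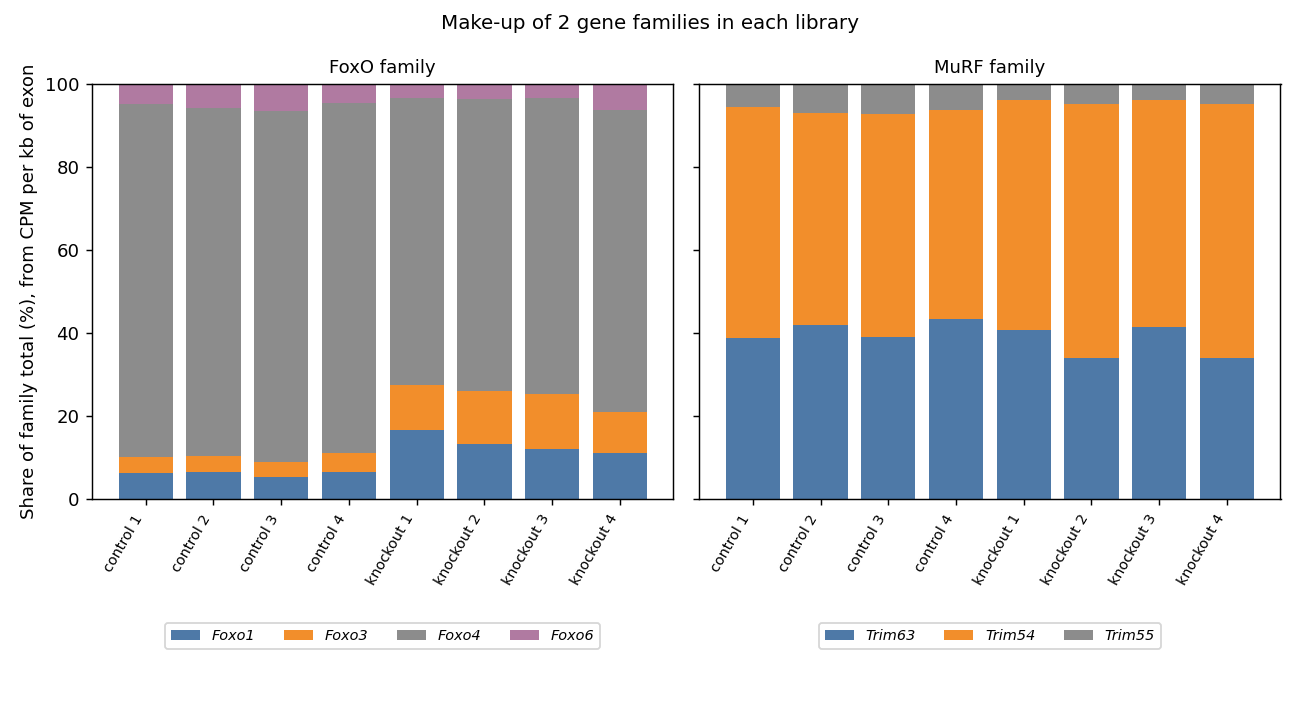
Share of each gene (vertical axis, percent) in the summed CPM per kb of exon of the FoxO family (left) and the MuRF family (right), with 1 bar per library. Foxo4 makes up 84.4% of the FoxO total on average in the controls and 70.8% in the knockouts, where Foxo1 and Foxo3 take more of it, and the Trim63 shares of the 2 groups overlap.

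The ratio of a pair of genes within a library was compared between the groups by an exact two-sided permutation test of 4 against 4, which cannot go below p = 0.0286. Over 6 pairs the smallest adjusted p is then limited by how many pairs reach that bound. On the log2 scale the ratio of Foxo3 to Foxo4 was higher in the knockouts by 1.77, that of Foxo1 to Foxo4 by 1.35 and that of Fbxo30 to Fbxo31 by 1.30. For each of these 3 the groups did not overlap (exact permutation p = 0.0286, adjusted p = 0.0571 over 6 pairs). The ratio of Trim63 to Fbxo32 was higher by 0.39 (exact permutation p = 0.0857, adjusted p = 0.103), and that of Foxo1 to Foxo3 lower by a log2 difference of -0.42 (exact permutation p = 0.0857, adjusted p = 0.103). The ratio of Fbxo32 to Fbxo40 differed by 0.18 (exact permutation p = 0.4, adjusted p = 0.4). None passed 0.05 after adjustment with all 8 libraries. Without knockout replicate 1, the ratios Fbxo30/Fbxo31, Foxo1/Foxo3, Foxo1/Foxo4 and Foxo3/Foxo4 did (adjusted p = 0.0429 each, exact permutation test).

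The same counts were also set against the fibre markers instead of the library. The summed fibre marker level was lower in the knockouts by a log2 difference of -1.45 (exact permutation p = 0.0286, the smallest possible). Relative to that sum, each of the 10 genes was higher on average in the knockouts, by log2 differences from 0.11 for Foxo4 and 0.21 for Fbxo40 to 1.87 for Fbxo30 and 1.88 for Foxo3. For Trim63 the difference was 0.78 and for Fbxo32 0.39. In 6 of the 10 genes every knockout library stood above every control on this scale, beside 84.0% of all genes. The fibre markers are mostly genes of the contractile apparatus, so this scale sets the ligases beside sarcomere mRNA and is not a level per fibre.

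Markers of other cells were looked at beside these values. The summed level of 9 macrophage markers was 72.0 to 189 CPM among control and 161 to 296 CPM among knockout libraries. In edgeR 1 marker passed the threshold (Cd68, higher) and 6 had an unadjusted p under 0.05, while 4 passed in DESeq2. For 3 neutrophil markers the sum was 0.458 to 4.20 CPM among control and 17.3 to 37.8 CPM among knockout libraries, with 1 higher (S100a8). This sum follows S100a8, whose mean went from 0.366 to 22.8 CPM. S100a9 (0.587 to 1.03 CPM) and Csf3r (0.659 to 1.56 CPM) overlapped between the groups and did not pass the threshold. The summed level of 8 adipocyte markers was 249 to 1502 CPM among control and 712 to 2600 CPM among knockout libraries. Of these markers 0 passed the threshold in edgeR and in DESeq2, and 1 had an unadjusted edgeR p under 0.05. The adipocyte level was tried as a covariate, a setting chosen after seeing the data: the calls of the 10 genes were the same, and of their signs only that of Foxo1 differed (-0.01).

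The promoters of the ligases are known for FoxO and glucocorticoid elements (Trim63) and for E-boxes, the sites of Myod1 and Myog. RefSeq promoter sequences of GRCm38.p6 matched 8 of the 10 genes, with 9 windows of 250 bases before a start site (2 for Fbxo40); those of Fbxo32 and Foxo4 were not used here. The FoxO element GTAAACA, on either strand, was found in 1 of the 9 windows, that of Trim63, beside 3.17% of 32851 promoter windows. Its shorter core AAACA, part of that element, was in the windows of 3 genes (Trim63, Trim32 and Foxo1), beside 46.4% of all. The E-box CAGCTG was in 4 of the 9 windows, 1 of Trim63, 1 of Trim32 and both of Fbxo40, beside 13% of all. The amino acid response element of ATF4, TGATGNAAT, was in none of the 9, beside 0.816% of all. A match is a run of letters and not a measured site.

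The 4 windows with an E-box are shown, 5′ to 3′ on the strand of the gene, as those that hold one of the longer motifs searched. Fbxo31, whose knockout libraries also all lay below the controls, has a window with none of the motifs. Capitals mark CAGCTG in all of them and, in Trim63, also a FoxO element read on the other strand and a palindrome beside it. They span chr4:134314870-134315119 (plus strand) for Trim63, chr16:36990468-36990717 and chr16:36979137-36979386 (minus strand) for windows 1 and 2 of Fbxo40, the second next to the counted span of the gene, and chr4:65604736-65604985 (plus strand) for Trim32.
Trim63: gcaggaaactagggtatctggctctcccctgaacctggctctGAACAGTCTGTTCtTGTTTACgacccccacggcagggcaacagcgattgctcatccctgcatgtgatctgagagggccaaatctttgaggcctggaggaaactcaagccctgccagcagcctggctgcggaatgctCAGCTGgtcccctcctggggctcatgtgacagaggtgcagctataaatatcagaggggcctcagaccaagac
Fbxo40, window 1: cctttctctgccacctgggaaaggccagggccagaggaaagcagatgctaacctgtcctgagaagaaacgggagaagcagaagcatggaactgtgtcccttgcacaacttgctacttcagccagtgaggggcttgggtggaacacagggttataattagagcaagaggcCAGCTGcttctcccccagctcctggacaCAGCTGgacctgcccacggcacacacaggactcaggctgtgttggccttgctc
Fbxo40, window 2: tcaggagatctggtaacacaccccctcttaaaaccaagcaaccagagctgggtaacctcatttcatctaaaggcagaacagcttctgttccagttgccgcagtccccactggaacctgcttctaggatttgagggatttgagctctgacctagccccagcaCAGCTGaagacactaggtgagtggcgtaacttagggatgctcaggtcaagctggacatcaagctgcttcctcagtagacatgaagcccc
Trim32: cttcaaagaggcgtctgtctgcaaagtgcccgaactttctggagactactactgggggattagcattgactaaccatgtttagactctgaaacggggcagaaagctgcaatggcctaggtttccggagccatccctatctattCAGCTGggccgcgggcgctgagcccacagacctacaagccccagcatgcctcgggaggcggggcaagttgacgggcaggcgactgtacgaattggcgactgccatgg

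In Trim63 the FoxO element begins at position -194, counted from the start site, and reads TGTTTAC on this strand. Separated from it by 1 base, from position -208, lies GAACAGTCTGTTC, an inverted repeat of the half-site GAACA with 3 bases between, the core of the glucocorticoid response element. This core was searched for after the sequence had been seen. It was in 13 of the 32851 windows (0.0396%), and the longer form built on the half-site AGAACA was in none of the 9, beside 0.00913% of all. The E-box of Trim63 begins at position -72, those of Fbxo40 at -81 and -53 in window 1 and at -89 in window 2, and that of Trim32 at -107.

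The lists of related genes below were chosen with earlier results of these data known. Each is given by its counts and its median log2 fold change, beside 0.07 for all genes, 23.6% of which were higher and 21.1% lower. A number in parentheses after a gene name is its log2 fold change, and the changes given for risen genes are on the log2 scale too. With library totals alone 8498 genes were higher and 873 lower, against 3303 and 2962 with TMM, and the counts in every list shifted toward higher.

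Other ubiquitin ligases of muscle leaned to lower levels: 12 of 30 were lower, 3 were higher and 15 did not pass, with a median of -0.25. Asb2, a cullin 5 adaptor that targets filamins, went from 1101 ± 95.2 to 54.6 ± 7.17 CPM (log2 fold change -4.33, edgeR adjusted p = 2.95e-08). The Kelch proteins Klhl31 (-1.89) and Kbtbd13 (-1.72), adaptors of cullin 3 ligases, fell as well. Those that rose were Fbxl22 (1.11), an F-box protein of the Z-disc, Siah1a (0.95), and Trim72 (0.46), which takes part in membrane repair. Trim55 was lower at -1.14, and Trim54 was lower at -0.40, but at 0.27 with library totals alone. On library totals alone 17 of the list were higher and 8 lower.

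The parts that an F-box protein needs to act, and the supply of ubiquitin, did not move as 1 group. Of 29 measured genes of the SCF complex and of ubiquitin conjugation, 6 were higher, 11 lower and 12 did not pass, with a median of -0.09. Cul1, the SCF scaffold, was at 0.00 (edgeR adjusted p = 0.985) and Rbx1, its RING subunit, at -0.34 (edgeR adjusted p = 0.0103). The adaptor Skp1a was lower at -0.46, but at 0.20 with library totals alone. The conjugating enzymes Ube2b (-1.36), Ube2d1 (-1.27) and Ube2g1 (-1.05) fell. Uchl1, a deubiquitinase best known from neurons, rose by 3.31, Rps27a, which encodes ubiquitin fused to a ribosomal protein, by 1.27, and Cand1, which exchanges F-box proteins on Cul1, by 0.66. Library totals alone gave 19 higher and 4 lower.

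Genes known as FoxO targets split. Of 30 measured, 6 were higher, 11 lower and 13 did not pass, with a median of -0.10. The lysosomal protease Ctsl went from 124 ± 4.43 to 1302 ± 194 CPM (log2 fold change 3.39, edgeR adjusted p = 6.91e-08). Eif4ebp1, an inhibitor of translation initiation, rose by 2.68 and Gadd45a, a stress gene of atrophying and denervated muscle, by 2.54. Pdk4, the kinase that turns off pyruvate dehydrogenase in fasting, went from 2183 ± 498 to 310 ± 214 CPM (log2 fold change -2.82, edgeR adjusted p = 0.000836). Myostatin (Mstn, -1.49) and Pik3ip1 (-1.44), an inhibitor of PI3 kinase, were also lower. Several of these genes answer to other factors too: Eif4ebp1 and Gadd45a are also targets of ATF4. The counts were 16 higher and 5 lower on library totals alone.

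Of 38 measured genes listed as regulators of FoxO proteins, 11 were higher, 15 lower and 12 did not pass, with a median of -0.18. The list also holds Foxo6, itself a FoxO gene, and shares Insr and Irs2 with the FoxO targets. Trib3, a pseudokinase that binds Akt, went from 1.16 ± 0.533 to 149 ± 9.73 CPM (log2 fold change 6.98, edgeR adjusted p = 2.95e-08). The receptor Igf1r rose by 1.16 and its ligand Igf1 was lower at -1.49. The methyltransferase Prmt6 rose by 1.02. The kinase Mapk14 (p38 alpha) was lower at -1.75 and Foxo6, the fourth FoxO gene, at -1.47, the latter at -0.80 with an edgeR adjusted p of 0.0112 on library totals alone. With library totals alone 20 of these listed genes were higher and 4 lower.

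Of 36 other inducers of atrophy ligases, 12 were higher, 11 lower and 13 did not pass, with a median of 0.08. Myog, which induces Trim63 and Fbxo32 in denervated muscle, went from 6.59 ± 2.30 to 103 ± 23.2 CPM (log2 fold change 3.96, edgeR adjusted p = 1.03e-06). Hsd11b1, which makes active glucocorticoid, rose by 2.81, and Nfkb2, a subunit of NF-kappaB, by 2.22. Tsc22d3, a classic glucocorticoid target, was lower at -1.50. The glucocorticoid targets Fkbp5 (0.12, edgeR adjusted p = 0.733) and Per1 (0.27, edgeR adjusted p = 0.202) of the same list did not pass. Fkbp5 and Per1 were named after their values were seen. In the activin and TGF-beta branch, the receptor Acvr1b (-1.28) and the transducer Smad3 (-2.20) were lower. The same counts were 22 and 5 on library totals alone.

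Among 27 measured substrates of these ligases, 14 were lower, 5 higher and 8 did not pass, with a median of -0.68. Lower were the fast myosin heavy chain Myh4 (-2.34), myosin-binding protein Mybpc2 (-2.33) and tropomyosin Tpm1 (-2.07). Higher were Myc (2.98), the myosin Myh1 (1.15) and the Z-disc protein Actn2 (1.10). Mfn2, the mitofusin on which Mul1 acts, was lower at -0.68, and Eif3f and Myod1, the substrates of Fbxo32, were at 0.26 (edgeR adjusted p = 0.0415) and 0.14 (edgeR adjusted p = 0.681). Library totals alone put Mfn2 at -0.01 (edgeR adjusted p = 0.882). They put Eif3f at 0.93 (edgeR adjusted p = 2.12e-06) and Myod1 at 0.83 (edgeR adjusted p = 0.0295). Mfn2, Eif3f and Myod1 were named after their values were seen. The list shares Irs1 and Mapk14 with the regulators and several contractile genes with the fibre markers. Scaling by library totals alone gave 11 higher and 12 lower.

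**Figure D4:**
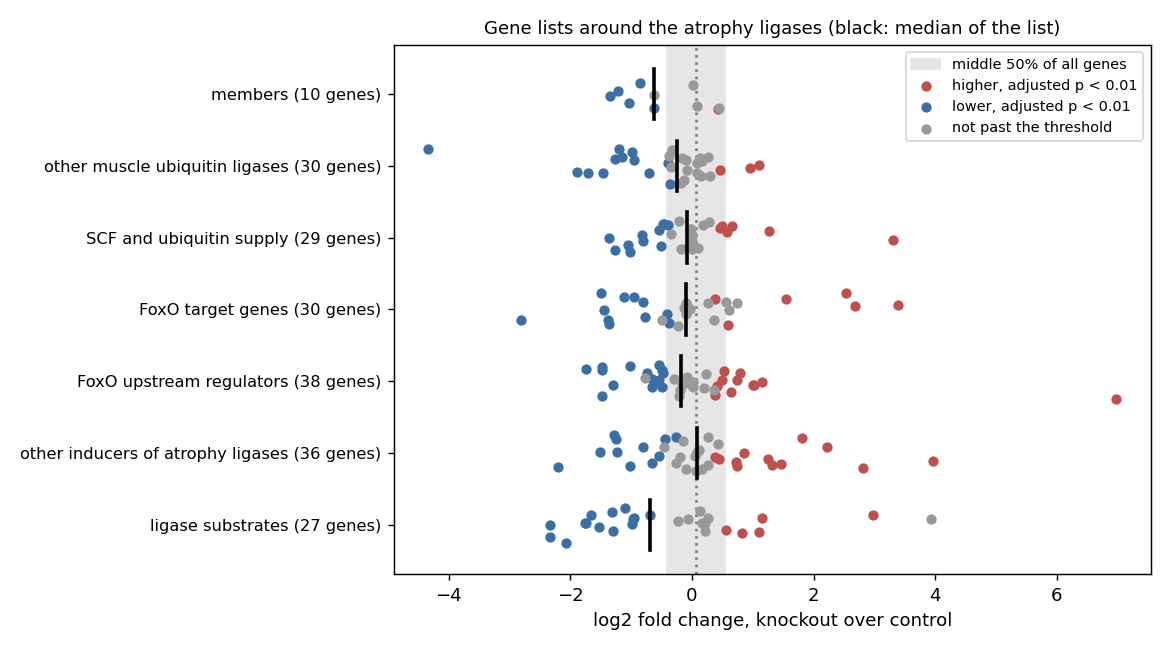
Log2 fold change of knockout over control (horizontal axis) of the 10 genes and of the 6 lists, 1 point per gene, coloured by the call, with the median of each list as a black bar, all genes' median dotted and their middle 50% shaded. The medians of the 10 genes (-0.62) and of the ligase substrates (-0.68) lie furthest to the left, and each of the 6 lists holds genes called in both directions.

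The genes whose level over the 8 libraries was most like that of 3 of the 10 were taken by the root mean square difference between centred log2 CPM profiles, among 11047 genes with a mean count of at least 50. As the smallest differences of 11047, they lie below the median over these genes by the way they were picked. For Trim63 the most alike were Klf9 (0.134), 3110062M04Rik (0.149) and Art1 (0.152), beside a median of 0.497 over all genes. Klf9 is a factor that answers to glucocorticoids, and a link of Trim63 to them was not tested. For Fbxo32 they were Rora (0.183), Msh3 (0.197) and Pde7a (0.202), beside 0.658. For Foxo1 they were Pkp4 (0.092), Cracr2b (0.098) and Klf13 (0.108), beside 0.342.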

How the data were processed

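RNA-seq counts of 4 knockout and 4 control muscles were used. The authors trimmed reads with cutadapt after bcl2fastq (2.20.0.422), mapped them to GRCm38 with STAR (2.5.4b) and counted read pairs on exons with Rsubread, without duplicate, chimeric, multimapping or poorly mapped reads. Genes with few reads were dropped; the lowest total in the deposited counts is 51. The annotation release and the use of strand in counting are not given in the sources used here. The other columns, FPKM values and the authors' DESeq2 (1.32.0) fold changes and p-values, were not used. Exon bases per gene, for CPM per kb, are from the deposited table.

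The counts of all 14012 genes were tested in R (4.3.3) with edgeR (4.0.16): TMM factors, a quasi-likelihood fit on the group alone and p-values adjusted by Benjamini-Hochberg over all genes, at an adjusted p under 0.01. DESeq2 (1.42.0) was an alternative. Log2 CPM values had a prior count of 2. Ratios and single values were compared by exact permutation over 70 assignments. Each library came from 1 mouse. The 10 genes and all lists were chosen with earlier results of these data known; all 10 are named, with the 3 highest and 3 lowest called genes of each of the 6 lists and the 3 genes most like Trim63, Fbxo32 and Foxo1. Skp1, Ufd1, Depp1, Tnfrsf9 and Piasy of the lists were not analysed here. Promoters are from RefSeq (GRCm38.p6). Overlaps of genes, and the spans set beside the counted ones, are from GENCODE. Cell types were looked at with 11 marker lists. The procedure was tested on simulated data for knockout against control (13987 genes, 100 changed at each size). There edgeR recovered 79% where the log2 change was 1 and 99% where it was 2. Of the unchanged genes edgeR called 0 and DESeq2 called 7. How the scaling acts with as many changed genes as in the libraries used here was not tested. Alternatives covered scaling, abundant genes, the filter, the test, the threshold, the dispersion, the replicate block, single libraries left out and the prior count.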

Additional observations from a re-analysis of the deposited data

Results flagged for a closer look

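The value in each group of 4 libraries was compared with the other 3, for the 10 genes in both groups, and chance alone marks about 1 in 20 groups. Of 20 groups, 2 held a library far from the others. The Trim63 level of control replicate 4 was 490 CPM, and its distance to the next library made up 0.902 of the range of the controls. The Mul1 level of control replicate 2 was 51.2 CPM, with 0.832 of the range. Without control replicate 4 the log2 fold change of Trim63 was -0.58 (edgeR adjusted p = 0.03), and without control replicate 2 that of Mul1 was 0.11 (edgeR adjusted p = 0.218). Neither gene passed the threshold with or without that library.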

How the results depend on the processing

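Of 18 alternatives, Fbxo40 and Foxo4 kept their direction and call in all, and Fbxo32 and Fbxo31 in 17, losing the call with library totals alone. The number of the 10 genes that were higher, 1 as reported, was 0 with RLE scaling, without the 20 most abundant genes and with the replicate block, 2 at an adjusted p under 0.05 (Foxo3 with Fbxo30) and 4 with library totals alone. The number lower, 5 as reported, was 2 with library totals alone and 6 with RLE scaling, DESeq2, the looser threshold and the replicate block, Trim63 being the sixth. With 1 library left out, 0 to 1 were higher and 5 to 6 lower, and 5196 to 5867 genes passed against 6265; the lower count there has fewer samples behind it. Trim63 (0.0233) and Trim32 (0.0482) changed sign with library totals alone. Foxo1, at 0.02, was at -0.0226 with RLE scaling, -0.00016 without the 20 most abundant genes, -0.0224 in DESeq2, -0.0104 with the adipocyte covariate, -0.03 without control replicate 1, -0.0033 without control replicate 3, -0.13 without knockout replicate 1 and -0.03 without knockout replicate 3, and reached 0.092 without knockout replicate 4. Its standard error exceeds each of these but that without knockout replicate 1. The log2 ratios ranged, with 1 library left out, over 1.11 to 1.56 (Fbxo30/Fbxo31), -0.57 to -0.32 (Foxo1/Foxo3), 1.23 to 1.44 (Foxo1/Foxo4), 1.71 to 1.86 (Foxo3/Foxo4), 0.31 to 0.51 (Trim63/Fbxo32) and 0.03 to 0.30 (Fbxo32/Fbxo40, lowest without control replicate 2 and highest without knockout replicate 4). Mul1, at 0.08, was at 0.05 without knockout replicate 1 and 0.03 without knockout replicate 3. Leaving out the 20 most abundant genes brought the lower ligase substrates from 14 to 7, since 8 of the substrates are among the 20.

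Libraries of the same replicate number deviated together with correlations of 0.213, 0.0351, 0.512 and 0.163, each of them positive. Of 8 libraries 5 correlated best with their own number. These values do not settle whether the number pairs the mice. No pairing was stated, and the main fit did not use the number. With the number as a replicate block 6123 genes passed, Trim63 passed (-0.67, edgeR adjusted p = 0.00931) and Fbxo30 did not (0.42, edgeR adjusted p = 0.0114). Foxo3, at 102 to 432 counts per library, held the lowest single count of the 10.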

Other observations

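Markers of other cells in the tissue moved in several directions under TMM scaling, where 21.1% of all genes were lower and 23.6% higher. With library totals alone the median of all genes moved from 0.07 to 0.73 on the log2 scale. These markers are not given on that scale. Of 7 fibroblast markers 5 were lower, with a summed level of 1425 to 1947 CPM among control and 592 to 858 CPM among knockout libraries. Of 6 endothelial markers 5 were lower, at 298 to 426 CPM and 207 to 238 CPM. The log2 fold changes of the lower endothelial markers ran from -0.66 (Pecam1) to -0.82 (Cdh5). Those of the lower fibroblast markers ran from -0.51 (Ly6a) to -1.92 (Col1a1). Of 6 markers of pericytes and smooth muscle 3 were lower, at 432 to 691 CPM and 408 to 463 CPM. Of 6 satellite cell markers 3 were higher and 2 lower, at 44.9 to 55.7 CPM and 50.9 to 70.4 CPM. Of 5 Schwann cell markers (36.5 to 120 CPM and 57.1 to 94.4 CPM) 0 passed the threshold in edgeR and in DESeq2, and 1 had an unadjusted edgeR p under 0.05. Of 5 red blood cell markers (41.1 to 102 CPM and 8.61 to 96.7 CPM) 0 passed in either tool or at an unadjusted edgeR p under 0.05. Of 2 measured markers of T and B cells 1 was lower, at sums of 0.441 to 2.0 CPM and 0.459 to 0.994 CPM.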
